A study of Mus musculus with 5 samples.

Results

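The respiratory chain genes were followed through ribonucleoprotein immunoprecipitations (RNP-IPs) of myc-tagged AUF1 p42, a protein that binds AU-rich mRNA. A gene belonged to the set when a probe set of the array was assigned to it alone and its symbol began with Ndufa, Ndufb, Ndufc, Ndufs or Ndufv and a digit, with Uqcr, with Cox4 to Cox8 or with Atp5, or was Sdha to Sdhd or a mitochondrially encoded subunit. This gave 82 of the 18194 genes with a probe set of their own. Of these, 35 bore complex I names, 4 belonged to complex II, 8 to complex III, 17 to complex IV and 17 to complex V, and 1, ND5, was encoded by mitochondrial DNA. Each gene was read by its probe set of highest mean signal.

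The cells of all 3 groups were NIH/3T3, an established mouse embryonic fibroblast line, carrying pBSwitch and pSLHGC-MYC-AUF1 p42, a GeneSwitch pair that makes myc-AUF1 p42 in response to mifepristone. There were 2 groups of 2 arrays each, one of RNP-IPs labelled as AUF1 induction (1 nM mifepristone for 24 h, per the study's methods) and one of RNP-IPs labelled as the control without induction, and a single array of total RNA formed the third. RNA was pulled down with anti-myc beads in both RNP-IP groups, and the 2 RNP-IP groups differ by label in induction alone. Total RNA was labelled as from cells expressing myc-AUF1 p42, and whether those cells had been induced is not stated. The selected cells are 1 line with a transgene, and nothing in the labels says that the replicates were separate cultures. The study calls the RNP-IPs of induced cells independent, without saying whether the cultures were separate. If not, the p-values measure only the spread between these arrays, which may be technical.

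The respiratory chain moves electrons from NADH (complex I) and succinate (complex II) through complex III to oxygen at complex IV, and complex V uses the proton gradient that results to make ATP. Most subunits are encoded in the nucleus, translated in the cytoplasm and imported, while mitochondrial DNA encodes a small core of hydrophobic subunits that are made inside the organelle. Fibroblasts express the whole chain, with tissue-specific forms of a few complex IV subunits used in heart, skeletal muscle, lung or testis.

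Values are RMA signals on a log2 scale, and they ran from 2.32 to 14.86 over all probe sets. Hnrnpd, the gene of AUF1, was lower with the induced label. Its signal was 6.72 and 7.39 with the induced label, 11.35 and 11.85 with the uninduced label and 10.60 for total RNA, so "induced" and "uninduced" below mean the labels only. Whether its probe set reads the transgene, and whether any arrays were exchanged, was not tested. The fibroblast markers stood high in every array, with 8 of 8 above a mean of 6 and array means from 10.99 to 11.67, while all 4 endothelial markers and 3 of 4 each of the epithelial, neural and striated muscle markers lay under 5 in all arrays. The remaining epithelial marker had a mean of at least 6, and those of the neural and striated muscle lists did not. Of the 2 blood markers measured, 1 lay under 5 throughout. Signals under 5 are treated here as near background.

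In the comparison the study was built on, the 2 induced RNP-IPs against the 3 controls (uninduced RNP-IPs and total RNA), the respiratory chain genes stayed mostly close to their controls. Of 82 genes, 68 (82.9%) differed by less than 2-fold, against 88.4% of all genes and 73.2% of the genes with a mean signal of at least 6. Their median log2 difference was -0.04. By the study's methods equal amounts of RNA were labelled for each array, so a difference is one of relative share and not of RNA per cell. What lay behind such differences was not tested. A gene counted as called when its fold reached 3 and its limma p, with the Benjamini-Hochberg adjustment across every probe set, was under 0.5. By that rule 3 members were called lower (3.66%), all of the nucleus, and 0 were called higher by their chosen probe set, while the rule called 2.36% of all genes lower and 1.32% higher. Of the genes with a mean of at least 6, it called 5.78% lower and 2.72% higher. Of the 72 members of that level, 3 (4.17%) were called lower, a count too small to set apart from the 5.78%. The threshold of a call is loose and admits many false calls. None of the 82 reached an adjusted p of 0.05 in limma, and 19 had an unadjusted p under 0.05.

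The 3 called genes sit in 3 different complexes. Ndufs7, a core complex I subunit that holds an iron-sulphur cluster, had log2 signals of 9.64 and 10.59 in the induced RNP-IPs, 11.86 and 11.46 in the uninduced RNP-IPs and 11.82 in total RNA. Both induced arrays lay below all 3 controls, with a log2 difference of -1.60 ± 0.34 (SE, limma, adjusted p = 0.249). Uqcrq, a small subunit of complex III, gave 8.07 and 8.84 induced, 9.82 and 9.67 uninduced, and 11.03 in total RNA. Its log2 difference of -1.72 ± 0.54 (limma, adjusted p = 0.399) came with an uninduced level that was itself under total RNA. Atp5e, the epsilon subunit in the central stalk of ATP synthase, gave 7.62 and 8.61 induced, 10.16 and 9.50 uninduced, and 9.64 in total RNA. The groups did not overlap, and the log2 difference was -1.65 ± 0.39 (limma, adjusted p = 0.276). These calls rest on single arrays. Without induced 1, uninduced 1 or uninduced 2 no member was called, and without induced 2 there were 6, all lower. Without total RNA, Ndufs7 and Uqcrq were not called, Ndufa2 was lower and ND5 higher. With cyclic loess scaling the split was 1 higher, Sdhc, and 1 lower, Uqcrq, and among probe sets with a mean of at least 6 Sdhc and ND5 were called higher beside the same 3 lower genes. The second probe set of Ndufs7 gave -1.40, but the other 3 probe sets of Uqcrq, with mean signals from 3.87 to 4.45, lay near background and gave log2 differences between -0.38 and 0.06.

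**Figure D1:**
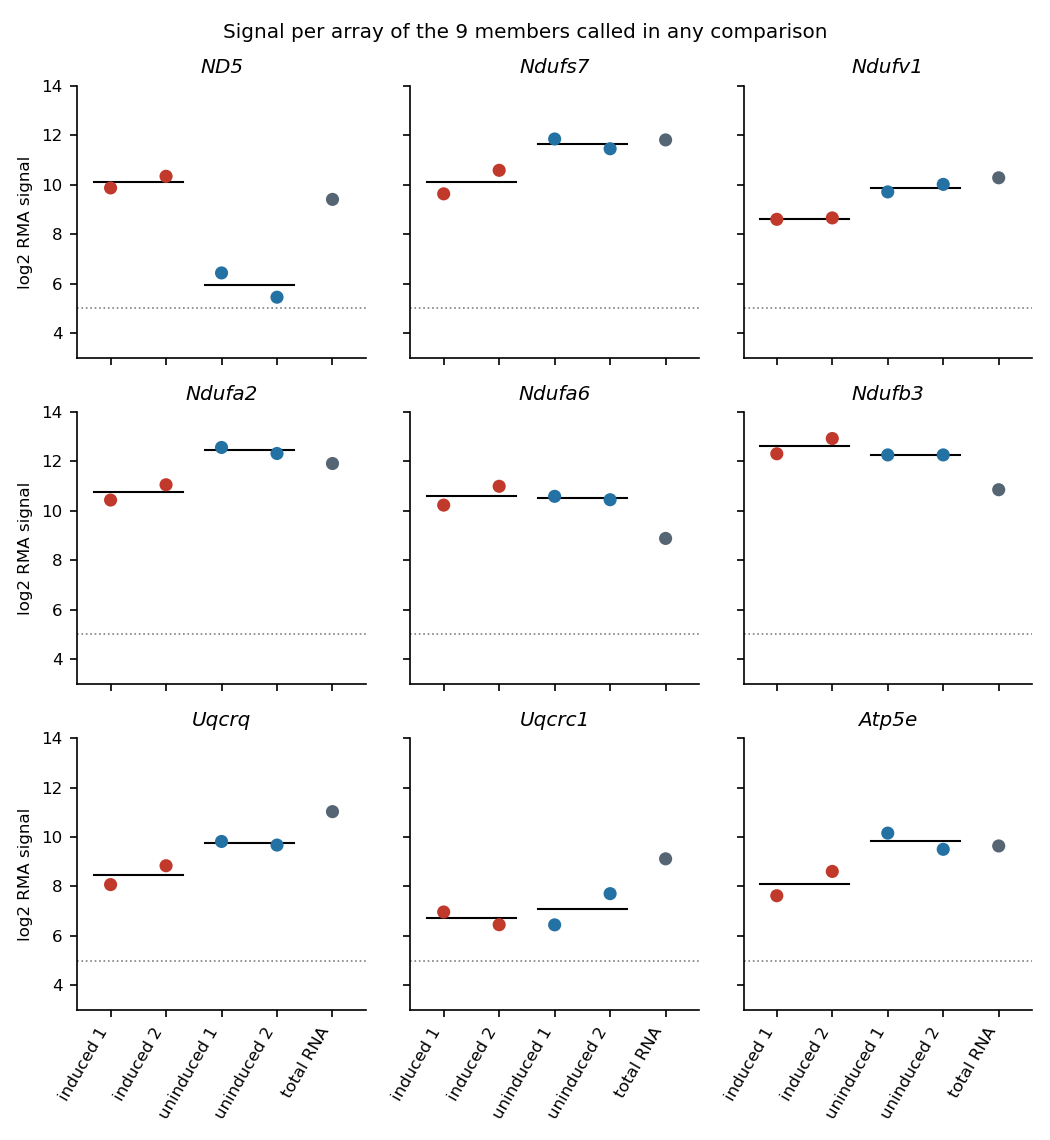
Log2 RMA signal (y axis) in each of the 5 arrays (x axis) for the 9 genes called in any of the 4 comparisons. Red points are RNP-IPs labelled induced, blue those labelled uninduced and grey total RNA, black bars are means of 2 arrays and the dotted line marks 5. ND5 is low in both uninduced arrays, at 6.43 and 5.45, and between 9.41 and 10.35 in the others.

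Complete separation of the arrays was more frequent than calls. Both induced arrays lay above all 3 controls for 19 members (23.2%), against 12% of all genes, and below all 3 for 20 members (24.4%), against 13.4%. Signal level moves with these shares. Among genes with a mean of at least 6, 16.3% separated upward and 25.1% downward, and the 72 members of that level gave 20.8% and 26.4%. Members thus lay on both sides of the controls, in shares near those of other genes of that signal.

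Complex I, the NADH dehydrogenase, held genes on both sides. Its 35 members had a median log2 difference of -0.03, with 30 within 2-fold, 8 separated upward and 10 downward. The 6 measured core subunits encoded in the nucleus stayed within 2-fold less often than the other subunits. Their median was -0.77, with 3 of 6 within 2-fold and 3 of 6 below all controls. The rest had a median of -0.01, with 27 of 29 within 2-fold and 7 of 29 below all controls. They include Ndufa4l2, Ndufb1, Ndufb4 and Ndufs5, whose mean signals were under 5 and so near background. The lowest mean of a core gene was 8.71, so the 2 sets were not matched in signal. Of all genes with a mean of at least 6, 25.1% lay below all controls. Beside Ndufs7, Ndufs8, another iron-sulphur subunit, gave 10.51 and 11.17 induced, 12.11 and 12.03 uninduced, and 12.21 in total RNA. Its log2 difference was -1.28 ± 0.23 (limma, adjusted p = 0.194), and all 6 of its probe sets were below 0, from -1.47 to -0.11. Ndufv1, which binds NADH and flavin, gave 8.60 and 8.66 induced, 9.71 and 10.02 uninduced, and 10.28 in total RNA. This was -1.37 ± 0.19 (limma, adjusted p = 0.145), with its 3 probe sets between -1.37 and -0.96, and like Ndufs8 it missed the fold of 3. The 3 other core genes differed less and not in 1 direction, at -0.26 for Ndufs1, 0.48 for Ndufs3 and 0.68 for Ndufv2.

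Among the remaining complex I genes, the accessory subunit Ndufa2 had the largest negative difference, with 10.44 and 11.06 induced, 12.57 and 12.32 uninduced, and 11.92 in total RNA. It was not called against all controls (-1.52 ± 0.30, limma adjusted p = 0.222). Ndufb7, an accessory subunit, gave 9.42 and 9.96 induced and 11.07, 10.95 and 10.76 in the controls, a difference of -1.23 ± 0.20 (limma, adjusted p = 0.179). The highest value of the complex belonged to Ndufa12, an accessory subunit, at 12.12 and 12.88 induced, 11.82 and 11.11 uninduced, and 11.68 in total RNA. Its groups were separated, but the difference of 0.97 ± 0.35 had an adjusted p of 0.470 in limma. Its other bright probe sets gave 1.14 ± 0.15 (limma, adjusted p = 0.140) and 0.85, both below the fold of a call. The remaining probe set, near background, gave 0.06.

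Complex II, succinate dehydrogenase, is the one complex encoded wholly in the nucleus, and it links the chain to the tricarboxylic acid cycle. Its catalytic and membrane parts gave different values. Sdha, the flavoprotein, had 9.58 and 9.70 induced, 10.01 and 9.89 uninduced, and 9.26 in total RNA (log2 difference -0.08), and Sdhb, the iron-sulphur subunit, differed by 0.08. The anchors Sdhc and Sdhd both had their induced arrays above all controls. Sdhc gave 8.83 and 7.48 induced, 4.46 and 7.12 uninduced, and 5.70 in total RNA. Its difference of 2.39 ± 0.97 was not called (limma, adjusted p = 0.537), except with cyclic loess or the signal filter as given above, and its other probe set gave 0.78. Sdhd gave 10.68 and 10.16 induced, 7.48 and 9.24 uninduced, and 9.85 in total RNA, a difference of 1.56 ± 0.82 (limma, adjusted p = 0.666). Against the uninduced RNP-IPs alone, both anchors were called higher with the signal filter or without uninduced 2, and Sdhd with centred arrays or cyclic loess. In both anchors uninduced 1 was the lowest array, a point taken up with the array controls below.

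Complex III, the cytochrome bc1 complex, had a median of -0.18 over 8 genes. Uqcrfs1, the Rieske iron-sulphur protein, was the highest, at 11.54 and 11.17 induced, 10.20 and 10.41 uninduced, and 10.35 in total RNA. It stood clear of its controls by 1.03 ± 0.15 (limma, adjusted p = 0.148). Uqcrb, a small structural subunit, varied from 14.17 to 14.50 over the 5 arrays.

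Complex IV, cytochrome c oxidase, had all 17 genes within 2-fold of the controls and a median of -0.03. That count includes Cox4i2, Cox6b2, Cox7a1, Cox7b2, Cox7c and Cox8b, whose mean signals were under 5 and so near background. Cox4i1, the common form of subunit 4, gave 11.70 and 12.10 induced, 12.84 and 13.01 uninduced, and 12.79 in total RNA, the lowest difference of the complex (-0.98 ± 0.16, limma adjusted p = 0.167). Cox8a, the common form of subunit 8, gave 9.22 and 9.03 induced, 8.19 and 8.31 uninduced, and 8.35 in total RNA, the highest (0.84 ± 0.09, limma adjusted p = 0.113). Both were separated from the controls with small spread, in opposite directions and below the fold of a call. The tissue-restricted forms were near background. Cox4i2 ran from 4.15 to 4.48, Cox6b2 from 3.31 to 3.69, Cox7a1 from 2.87 to 3.28 and Cox8b from 3.58 to 4.07. Differences between arrays at that level are differences between signals near background. Cox6a2, the heart and skeletal muscle form of subunit 6a, lay somewhat higher, between 5.30 and 6.77, and the testis form Cox8c between 6.20 and 6.55. Their second probe sets were near background, at 3.48 to 4.30 for Cox6a2 and 3.70 to 4.44 for Cox8c. The common partners Cox6a1 (12.65 to 13.60), Cox6b1 (12.85 to 13.13) and Cox7a2 (11.73 to 13.28) were well above background in every array. Ndufa4, first described in complex I and now counted with complex IV, gave 10.16 and 10.03 induced against 9.96, 9.64 and 9.80, while its relative Ndufa4l2 stayed between 4.36 and 4.46.

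Complex V, the ATP synthase, had a median of -0.12 over 17 genes, and 14 were within 2-fold. The genes of the central stalk gave different values. Beside Atp5e, the delta subunit gene Atp5d gave 10.81 and 10.78 induced, 11.24 and 12.09 uninduced, and 12.06 in total RNA, a difference of -1.01 ± 0.32 (limma, adjusted p = 0.395). The gamma subunit gene Atp5c1 differed by 0.27. In the membrane part, Atp5j2 gave 10.06 and 11.02 induced and 12.05, 11.59 and 11.92 in the controls, a difference of -1.31 ± 0.35 (limma, adjusted p = 0.320). The highest value was that of Atp5g2, one of the genes of the c ring, at 0.82 ± 0.86, with groups that overlapped (8.24 and 7.76 induced, 5.84 and 8.45 uninduced, 7.25 in total RNA).

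**Figure D2:**
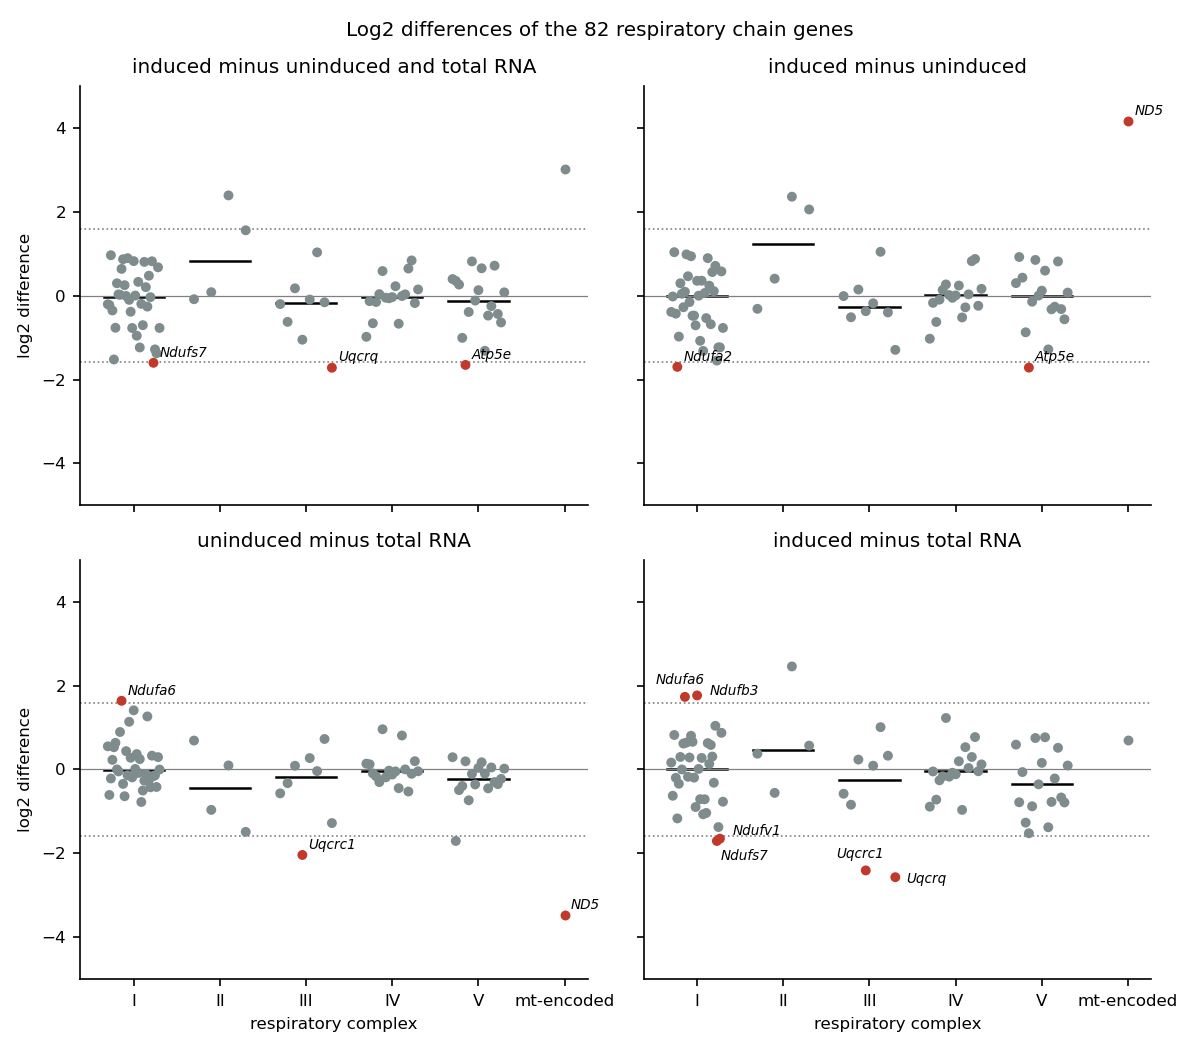
Log2 differences (y axis) of the 82 genes by complex (x axis) in the 4 comparisons; each point is 1 gene, red and named where called, black bars are medians and dotted lines mark a fold of 3. ND5 lies at 4.17 in the induced against uninduced panel and at -3.47 in the uninduced against total RNA panel, beyond every nuclear member in those panels.

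Setting total RNA apart separated the single mitochondrially encoded gene from the nuclear ones. ND5, a proton-pumping subunit of complex I that is transcribed and translated within mitochondria, gave 9.87 and 10.35 in the induced RNP-IPs, 6.43 and 5.45 in the uninduced RNP-IPs and 9.41 in total RNA. The induced RNP-IPs and total RNA were close to each other (log2 difference 0.70 ± 0.56, limma adjusted p = 0.775). The uninduced RNP-IPs were the low group. ND5 was called higher in induced than in uninduced RNP-IPs, 18.0-fold (4.17 ± 0.46, limma adjusted p = 0.172), and lower in uninduced RNP-IPs than in total RNA, 11.1-fold (-3.47 ± 0.56, limma adjusted p = 0.278). Against the pooled controls the difference of 3.01 ± 1.35 was not called (limma, adjusted p = 0.598), and the control group then ran from 5.45 to 9.41. Other mitochondrially encoded mRNAs had no probe set under the rule, so 1 probe set stands for that genome here.

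Induced against uninduced RNP-IPs, ND5 was the only member called higher (1 of 82, against 1.38% of all genes). The 2 called lower, against 2.65% of all genes, were Atp5e (-1.71 ± 0.49, limma adjusted p = 0.407) and Ndufa2 (-1.70 ± 0.28, limma adjusted p = 0.239). Of the genes with a mean of at least 6, 2.94% were called higher and 6.36% lower. The median of the members was -0.0045 and 67 of 82 genes were within 2-fold. None reached an adjusted p of 0.05 in limma, with 19 at an unadjusted p under 0.05. The count of 3 fell to 1, ND5, without induced 1 or uninduced 1. It was 7 without induced 2, with 4 more lower genes (Atp5j2, Ndufb5, Ndufs7 and Uqcrq), and 6 without uninduced 2, with 3 more higher genes (Atp5g2, Sdhc and Sdhd). Centring the arrays or cyclic loess gave 2 higher, ND5 and Sdhd, and 2 lower.

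RNP-IPs labelled uninduced were also set against total RNA. Here 73 of 82 genes were within 2-fold and the median was -0.09. Ndufa6, an accessory subunit of complex I, was called higher (1 of 82, against 1.26% of all genes), and ND5 and Uqcrc1 were called lower (2 of 82, against 1.36%). Of the genes with a mean of at least 6, 3.03% were called higher and 2.56% lower. Ndufa6 gave 10.24 and 11.00 induced, 10.59 and 10.45 uninduced, and 8.89 in total RNA, so that both RNP-IP groups lay above total RNA, by 1.64 ± 0.40 for the uninduced ones (limma, adjusted p = 0.382). Uqcrc1, a core protein of complex III, gave 6.96 and 6.45 induced, 6.44 and 7.71 uninduced, and 9.12 in total RNA. Both RNP-IP groups were below total RNA, the uninduced ones by -2.04 ± 0.70 (limma, adjusted p = 0.498). The Uqcrc1 call was lost without uninduced 1, induced 1 or induced 2, where its adjusted p reached 0.666, and that of Ndufa6 without uninduced 1. With 1 total RNA array, its spread is assumed to be that of the RNP-IPs. None of the 82 reached an adjusted p of 0.05 in limma, and 12 had an unadjusted p under 0.05.

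Induced RNP-IPs against total RNA had the most calls, 2 higher (against 2.03% of all genes) and 4 lower (against 4.50%). Of the genes with a mean of at least 6, 4.55% were called higher and 9.86% lower. Ndufb3, an accessory subunit of the membrane arm, gave 12.31 and 12.93 induced, 12.27 and 12.27 uninduced, and 10.86 in total RNA. It was called higher by 1.76 ± 0.32 (limma, adjusted p = 0.218), as was Ndufa6 by 1.73 ± 0.40 (limma, adjusted p = 0.271). Both genes had RNP-IP signals above total RNA under both labels. The calls of both were lost without induced 2. The 4 lower genes were Uqcrq (-2.57 ± 0.40), Uqcrc1 (-2.41 ± 0.70), Ndufs7 (-1.71 ± 0.53) and Ndufv1 (-1.65 ± 0.17), with limma adjusted p of 0.186, 0.338, 0.365 and 0.128. That of Uqcrc1 was lost without induced 1 or induced 2, and that of Ndufs7 without induced 1, uninduced 1 or uninduced 2. That of Ndufv1 was lost with cyclic loess, where its difference was -1.57. With only the probe sets whose names end in a plain _at, none of the 4 lower genes was called. Uqcrc1 has no such probe set, so its call was removed there and not tested. Of the 82 members, none had an adjusted p under 0.05 in limma, and 20 had an unadjusted p under 0.05. These comparisons share arrays, so a gene that appears in 2 of them is not independently seen in each.

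The RNA control probes differed between arrays of 1 group, and some members moved with them. The log2 difference between the 3′ and 5′ probe sets of Gapdh was 3.71 and 5.47 in the induced arrays, 6.05 and 4.29 in the uninduced arrays and 5.40 in total RNA. The 5′ signal itself was 4.24 in induced 2 and 3.65 in uninduced 1, against 8.18, 7.81 and 6.93 in the others. Total RNA is thus close to induced 2 in the difference, but not in the 5′ signal. Atp5b, the catalytic beta subunit of ATP synthase, gave 11.92 and 9.62 induced, 8.20 and 11.50 uninduced, and 11.56 in total RNA. It was lowest in the same 2 arrays, by a mean of 2.75 against the other 3. The same mean difference was 1.48 for Uqcrc1, 1.25 for Sdhc, 1.18 for Atp5g2, 1.10 for Sdhd and 1.04 for Ndufa10. In Sdhc and Sdhd, however, induced 2 lay above uninduced 2 and total RNA, and in Atp5g2 above total RNA. Induced 2 and uninduced 1 both lay below the other 3 arrays in 3 members, Ndufa10, Uqcrc1 and Atp5b (3.66%, against 6.45% of all genes). The same 3 remained at a mean difference of at least 1 (3.66%, against 2.24%). The part of this in the values of Sdhc, Sdhd and Uqcrc1 was not tested. ND5 did not follow it, as it was low in both uninduced arrays alike.

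**Figure D3:**
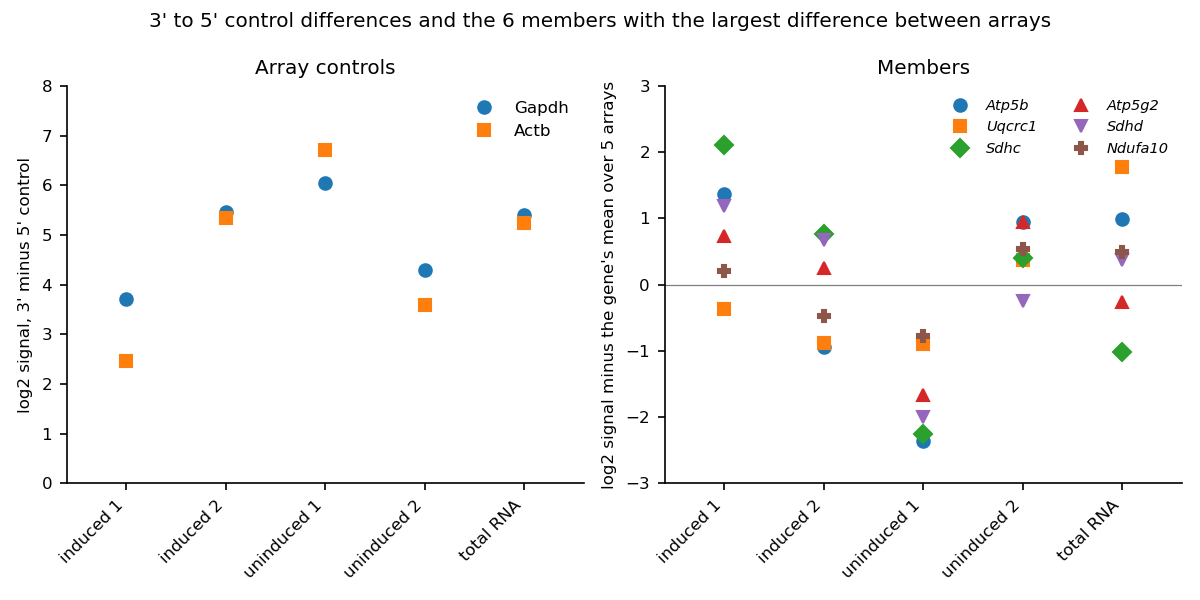
Left, log2 signal of the 3′ minus the 5′ control probe set of Gapdh and Actb in each array; right, log2 signal of 6 members minus the gene's own mean over the 5 arrays. Uninduced 1 has the largest control differences, 6.05 for Gapdh and 6.70 for Actb, and all 6 members are below their mean there.

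Probe sets of 1 gene did not always give the same result. The 82 genes had 165 probe sets of their own, 48 genes had more than 1, and in 15 of the 48 the probe sets differed in the sign of the induced against control difference. Where probe sets with a mean under 6 were left aside, the signs differed in 5 of 38 genes (Ndufb11, Sdha, Uqcrc2, Cox6c and Cox7a2l). Against the pooled controls, Ndufs4, an accessory subunit of complex I, was the only gene whose chosen probe set was not called while another of its own was. The chosen one differed by -0.03. The other gave 5.48 and 6.38 induced and 3.54, 3.54 and 3.30 in the controls. It was called higher (limma, adjusted p = 0.129), with the 3 controls but not the induced arrays near background, so no fold is given. Against total RNA, a second probe set of Ndufs8 was called lower in the induced RNP-IPs (-1.97, limma adjusted p = 0.265), where the chosen one gave -1.37. Ndufb4 shows the effect of the single-gene rule. Its own probe set stayed between 3.24 and 3.25 in all arrays, near background, whereas 2 probe sets shared with its copies Ndufb4b and Ndufb4c were bright. They gave 11.43 and 11.73 induced against 10.29, 10.07 and 10.04 (log2 difference 1.45, not called), and 9.81 and 9.22 against 7.76, 7.96 and 7.46 (1.79, limma adjusted p = 0.15, called). Which of the 3 genes gave those signals cannot be told from shared probes. In all, 9 probe sets were assigned to a member and another gene and stayed outside the counts.

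**Figure D4:**
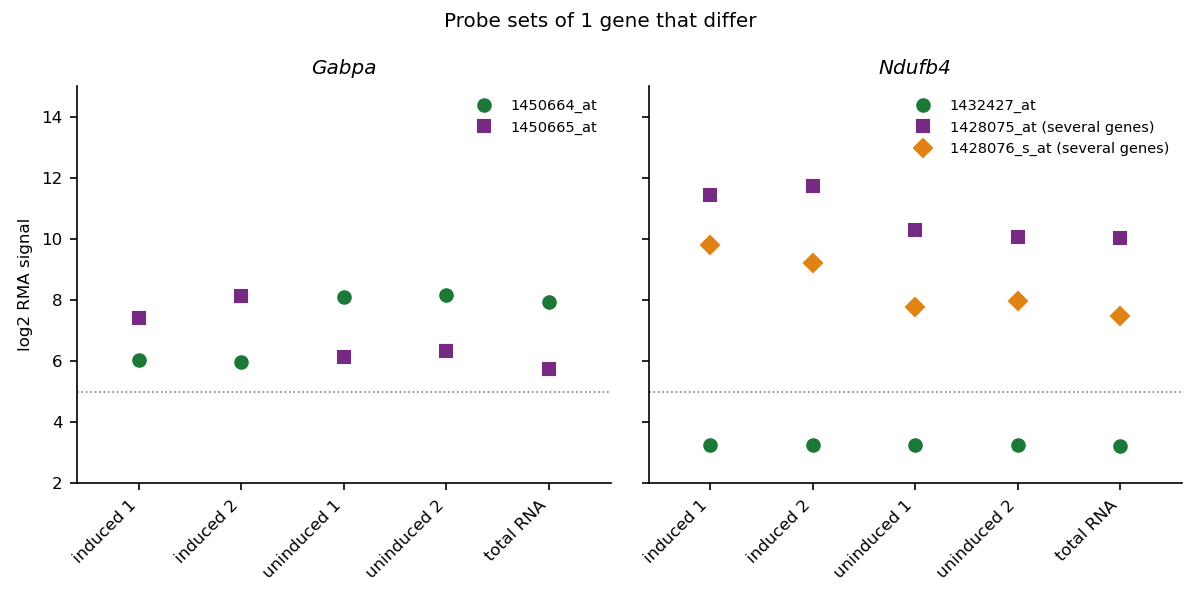
Log2 RMA signal (y axis) in each array (x axis) for the probe sets of Gabpa, left, and of Ndufb4, right; the dotted line marks 5. One Gabpa probe set is lower in both induced arrays, near 6, and the other is higher, and the 2 bright Ndufb4 probe sets, shared with other genes, are higher in both induced arrays.

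Genes around the chain were taken from lists of known partners and regulators. None of 6 further subunits and partners measured was called against the pooled controls. Of 48 assembly factors measured, 1 was called higher and 0 lower, against 1.32% and 2.36% of all genes, with a median of 0.12. It was Coa3, which helps to build complex IV, at 10.20 and 10.17 induced, 8.47 and 8.80 uninduced, and 8.49 in total RNA (1.60 ± 0.13, limma adjusted p = 0.0857). Its second, dim probe set gave 0.87. By chosen probe set, the other calls among these genes were all against total RNA. Ndufaf1, a complex I assembly factor, was higher in uninduced RNP-IPs (1.90), and Coa3, Cmc1 and Cox20 were higher in induced RNP-IPs (1.69, 1.91 and 2.12). So was Higd2a (2.16), a partner of complex IV. Of the 48 assembly factors, 1 was thus called higher in uninduced and 3 in induced RNP-IPs, against 1.26% and 2.03% of all genes. Among genes with a mean of at least 6 the shares were 3.03% and 4.55%. A dimmer probe set of Cmc1, at 6.66 and 6.94 induced, 5.23 and 4.98 uninduced, and 4.66 in total RNA, was called higher against the pooled controls (1.84, limma adjusted p = 0.116) and against uninduced RNP-IPs (1.69, limma adjusted p = 0.156).

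Of 19 regulators of mitochondrial gene expression, 0 were called higher and 2 lower against the pooled controls, where 1.32% and 2.36% of all genes were. Gabpa, the DNA-binding subunit of nuclear respiratory factor 2, gave 6.02 and 5.98 induced, 8.09 and 8.15 uninduced, and 7.93 in total RNA (-2.06 ± 0.08, limma adjusted p = 0.0523). A second Gabpa probe set ran the other way, at 7.41 and 8.11 induced, 6.12 and 6.32 uninduced, and 5.75 in total RNA (1.70 ± 0.30, limma adjusted p = 0.194), and it too passed the rule for a call. The gene thus has no single direction. Mterf3, a repressor of mitochondrial transcription, gave 6.10 and 6.90 induced against 8.54, 7.59 and 8.67 (-1.77 ± 0.46, limma adjusted p = 0.312). Tfam, which packages mitochondrial DNA and starts its transcription, was at 10.30 and 10.35 induced and 10.24 and 10.38 uninduced, but 8.64 in total RNA. It was called higher than total RNA in uninduced (1.67) and induced RNP-IPs (1.68), as were 1.26% and 2.03% of all genes. Its second, dimmer probe set gave 0.24 and -0.85.

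Promoters of respiratory chain genes are known to share elements for GABPA, NRF1 and YY1, and short stretches are shown for members that lay on different sides of the controls. RefSeq windows on GRCm38.p6, from 250 bases before to 50 after the start of the gene, were found for 66 of the 81 nuclear members. The ETS core CCGGAAG, searched on both strands, was in 17 of 66 (25.8%), against 9.93% of 27025 genes with a window. The NRF1 core GCGCATGCG was in 7 (10.6%, against 1.95%) and the YY1 core AAGATGGCG in 6 (9.09%, against 1.64%). The 27025 genes were not limited to those on the array or matched to the members in signal. Whether the shares are particular to the chain was not tested. The core of NRF1 often overlaps its own reverse complement, and each gene was counted once. Members with a window that lay below all controls held the ETS core in 4 of 14, and those above all controls in 5 of 16. In the sequences, each on the strand of its gene, capitals mark the core or its reverse complement.
Atp5e, below the controls, chr2:174464185-174464214, minus strand, ETS: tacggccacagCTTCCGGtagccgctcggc
Ndufs8, below the controls, chr19:3912741-3912770, minus strand, ETS: ttaggctccgcCTTCCGGttgaaccgcatc
Cox8a, above the controls, chr19:7217603-7217632, minus strand, ETS: tttccgaaataCTTCCGGctcgggcgtccg
Ndufs7, below the controls, chr10:80249463-80249492, plus strand, YY1: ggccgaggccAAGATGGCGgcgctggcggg
Uqcr11, below the controls, chr10:80406807-80406836, minus strand, NRF1: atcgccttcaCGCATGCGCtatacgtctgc
A match is a run of letters in this window and was not tested for binding.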

How the data were processed

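The authors amplified immunoprecipitated or total RNA by two-cycle labelling, hybridized it to GeneChip mouse arrays and deposited log2 RMA values for 45101 probe sets without a filter; neither labels nor methods state the RMA version. All 5 columns were used as deposited. Depth has no counterpart on an array, and the number of arrays limits the precision. limma 3.58.1 in R 4.3.3 (lmFit, eBayes) was fitted to all probe sets, as 2 induced against 3 control arrays and as 3 groups, with Benjamini-Hochberg adjustment over all probe sets. The script was tested on simulated data. Probe sets of several genes (932) or none (9211) gave no gene value. Members, gene lists and tests were chosen with earlier results of these data known. Genes named were the called members, the highest and lowest of each complex, ND5, paired isoforms, Hnrnpd and up to 2 called genes per list; others were named after their values were seen. Alternatives covered scaling, probe set choice, a signal filter, thresholds, left-out arrays and the replicate number as a block.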

Additional observations from a re-analysis of the deposited data

How the results depend on the processing

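Of the values for the numbers of called members and the median differences under the alternatives, 34 moved and 77 stayed within 1.5 times the count, or within the spread between arrays for medians. Centring the arrays, cyclic loess and updated symbols moved none of these counts and medians past those bounds, though the genes called differed as given above. Against the pooled controls, the 3 calls became 1 with the median over a gene's probe sets, 0 with plain _at probe sets only, 5 among probe sets with a mean of at least 6, 5 with only the 3 arrays of higher 5′ control signal (chosen after seeing the data), and 0 to 6 when each array was left out. An adjusted p under 0.05 gave 0 calls in all 4 comparisons, and one under 0.5 at any fold gave 20, 24, 14 and 31, in the order of the text. Induced against uninduced RNP-IPs, the 3 calls became 1 with plain _at probe sets, 5 with the signal filter and 1 to 7 when each array was left out. Induced against total RNA, the 6 calls became 2 with plain _at probe sets. There Uqcrq turned from -2.57 to 0.047, since its only plain probe sets are near background.

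The medians moved by little in absolute terms. Against the pooled controls it was 0.074 with plain _at probe sets and -0.13 to 0.029 when each array was left out. Induced against uninduced it was -0.12 with only the 3 arrays of higher 5′ signal and -0.0974 to 0.058 when each array was left out. Induced against total RNA it was 0.077 with the probe set of largest difference, 0.038 with plain _at probe sets, -0.17 with the signal filter and -0.047 to 0.051 when each array was left out. Uninduced against total RNA it was -0.10 to 0.00134 when each array was left out. The cause of these shifts was not tested. At the same threshold, ND5 was called under the 15 alternatives of scaling, probe sets, filter, block and arrays run against uninduced RNP-IPs (3.68 to 4.66) and the 11 against total RNA (-3.96 to -2.98), but its adjusted p in limma was at least 0.0519 and 0.213 in these, so a threshold of 0.05 did not call it.

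Deviations from the group means correlated at -0.50 between same-numbered RNP-IPs (-0.67 among bright probe sets). Since 2 arrays of a group deviate by equal and opposite amounts, the correlation was 0.50 between the others. Induced 2 and uninduced 1 also shared the low 5′ control signal. The correlation therefore cannot tell whether same-numbered RNP-IPs were handled together. With the replicate number as a block, 1 member was called in place of 3, and 654 in place of 1415 of all probe sets. A crossed replicate block, added after seeing the data, gave 5 and 1615.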

Other observations

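Of 76 mitochondrial ribosomal protein genes, 1 was called higher and 2 lower in induced RNP-IPs against the pooled controls (all genes, 1.32% and 2.36%), with a median log2 difference of 0.25. Mrpl58, a ribosome rescue factor, gave 5.07 and 5.39 induced, 8.23 and 8.01 uninduced, and 8.65 in total RNA (-3.07 ± 0.24, limma adjusted p = 0.0836), and its second probe set was near background. Mrpl49 gave 9.50 and 9.47 induced, 7.12 and 7.59 uninduced, and 8.16 in total RNA (1.86 ± 0.34, limma adjusted p = 0.207), while its second probe set gave -0.37. Mrps24 was the other gene called lower (-2.05 ± 0.52, limma adjusted p = 0.299), and its second probe set gave -1.28.

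Of 22 genes of mitochondrial protein import, 0 were called against the pooled controls, and 2 small or channel-forming translocase genes were called higher against uninduced RNP-IPs (all genes, 1.38%), Timm8b (1.60 ± 0.36, limma adjusted p = 0.321) and Timm17a (1.59 ± 0.30, limma adjusted p = 0.269). Of 16 genes of the tricarboxylic acid cycle and pyruvate dehydrogenase, 0 were called against the pooled controls. Sucla2, a subunit of succinyl-CoA synthetase, was at 11.70 and 11.48 induced, 12.76 and 12.90 uninduced, and 10.91 in total RNA, and it was called higher in uninduced RNP-IPs than in total RNA (1.92 ± 0.14, limma adjusted p = 0.169), as were 1.26% of all genes.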
